A study of Mus musculus with 15 samples.

Results

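The genes described here are 8 members of the chemokine receptor family, Ccr1, Ccr2, Ccr3, Ccr7, Ccrl2, Cx3cr1, Cxcr2 and Cxcr4. Their rows were found by symbol, the choice of these 8 having been made with earlier results of these data known, and they are 8 of the 53465 genes in the count matrix. RNAseq had been done in mouse bone marrow-derived macrophages (BMDMs), obtained by culture of marrow cells with the growth factor M-CSF (20 ng/ml, 7 days). The cells were then left untreated (control) or were treated for 24 h with IL-4, IL-4 and IL-6 (IL-4/IL-6), IL-13, or IL-13 and IL-6 (IL-13/IL-6). There were 3 libraries in each of the 5 groups. IL-4 was used at 10 ng/ml, and both of the other cytokines at 40 ng/ml. The study's methods give an age of 8 to 12 weeks for the mice. The labels give no strain or genotype and there was no group with IL-6 alone, so that every value for IL-6 below is for IL-6 added to IL-4 or to IL-13. The sequencing was done to see how IL-6 changes what IL-4 does in macrophages, and the series also holds the groups with IL-13.

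Chemokines are small secreted proteins that guide leukocytes along their gradients. Most of their receptors span the membrane several times and couple to inhibitory G proteins, whereas a few atypical members, such as Ccrl2, bind a ligand without G protein signaling. In the monocyte and macrophage lineage, Ccr2 directs the release of monocytes from the marrow and their entry into inflamed tissue, Cx3cr1 marks patrolling monocytes and many resident macrophages, and Cxcr4 holds cells in the marrow.

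All 15 libraries held between 17001352 and 18918686 counted reads. Expression of a gene across groups is stated as normalized CPM, that is counts per 1000000 reads after scaling of the library totals by edgeR's TMM factors, as mean ± SD of n = 3. Changes are log2 fold changes from one edgeR fit of all libraries (13938 genes tested). A gene was called at a Benjamini-Hochberg adjusted p under 0.05 in the quasi-likelihood test. The SE given with a change was derived from that test, as the absolute change divided by the square root of its F statistic. The p-values measure the spread between these libraries, whose separate culture origin the labels do not give. In the chi-square of their counts per gene, IL-4/IL-6 replicate 2 (23.8 and 42.2 against the others of its group) and IL-13 replicate 1 (20.6 and 15.9) stood apart, while the other pairs of replicates were between 2.60 and 7.38. As a check of the labels, Retnla, a gene induced by IL-4 and IL-13, was at 0 counts in control, 728 CPM in IL-4 and 51.1 in IL-13, and Socs3, a target of IL-6 signaling, went from 1.69 with IL-4 to 129 after IL-4/IL-6.

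All 8 receptors passed the filter on low counts. In IL-4 over control 2 of them were called higher (Ccr1 and Ccr3) and 6 lower, beside 32.1% of all tested genes called higher and 35.9% called lower. The same 2 and 6 receptors were called in IL-13 over control, where 29% of all genes were called higher and 31.1% lower. The median log2 fold change of the 8 was -3.06 in IL-4 and -2.30 in IL-13, whereas the median over all tested genes was -0.05 and -0.02. These comparisons share the control libraries. With IL-6 added to IL-4, 3 receptors were called higher (Ccr1, Ccr3 and Cxcr4), 4 lower (Ccr2, Cx3cr1, Ccrl2 and Cxcr2) and 1 was not called (Ccr7), beside 20.7% and 18.7% of all genes. With IL-6 added to IL-13, 2 were called higher (Ccr1 and Ccr3) and 4 lower (Ccr2, Cx3cr1, Ccrl2 and Cxcr2), beside 12.1% and 13.5% of all genes. The median of the 8 was -0.27 in each of these backgrounds, and that of all genes 0.04 and 0.01.

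**Figure D1:**
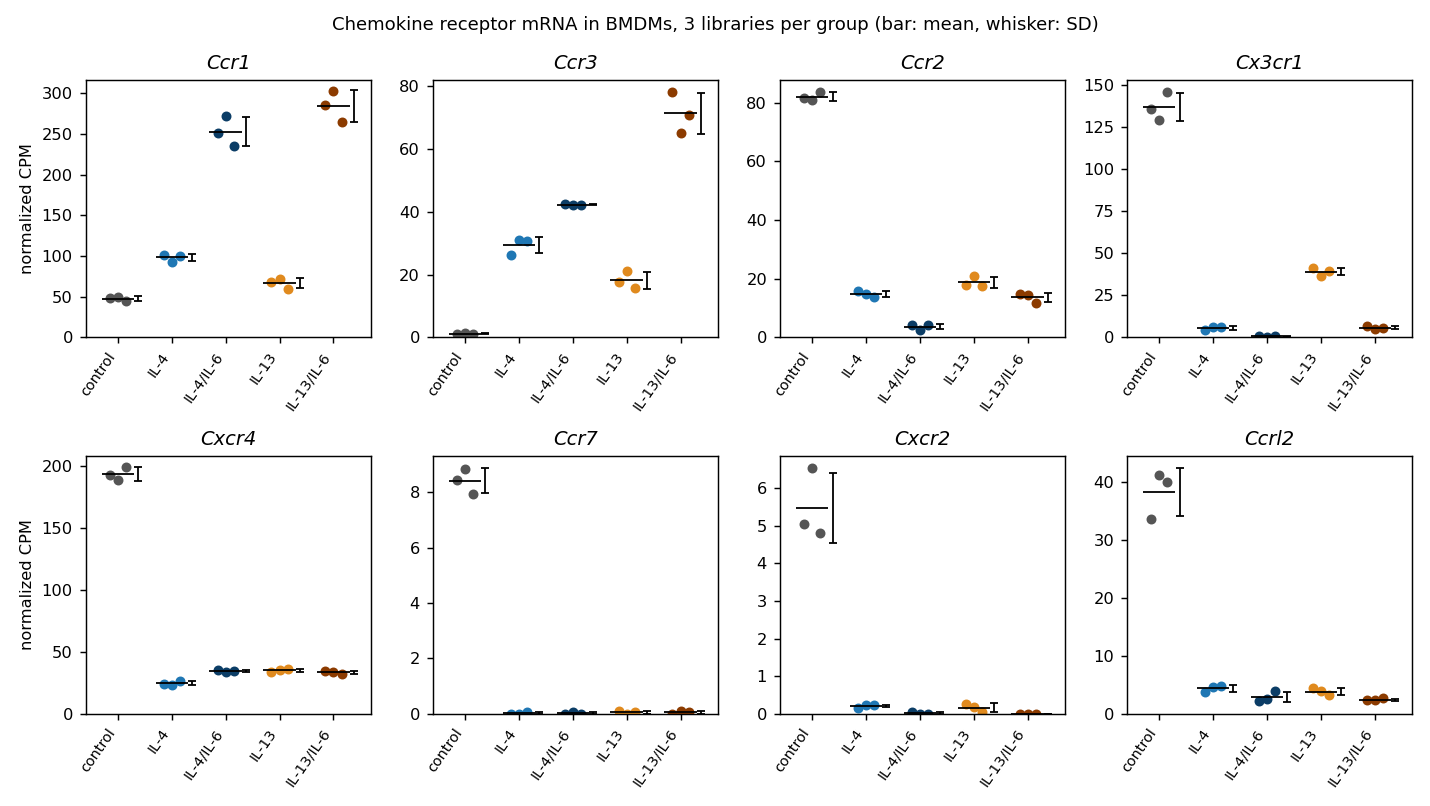
Normalized CPM of each receptor (y axis, from 0) in every library of the 5 groups (x axis), with points for libraries, bars for means and whiskers for SD. Ccr1 and Ccr3 are lowest in control and highest in IL-13/IL-6 (284 and 71.4 CPM), and the other 6 receptors are highest in control.

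**Figure D2:**
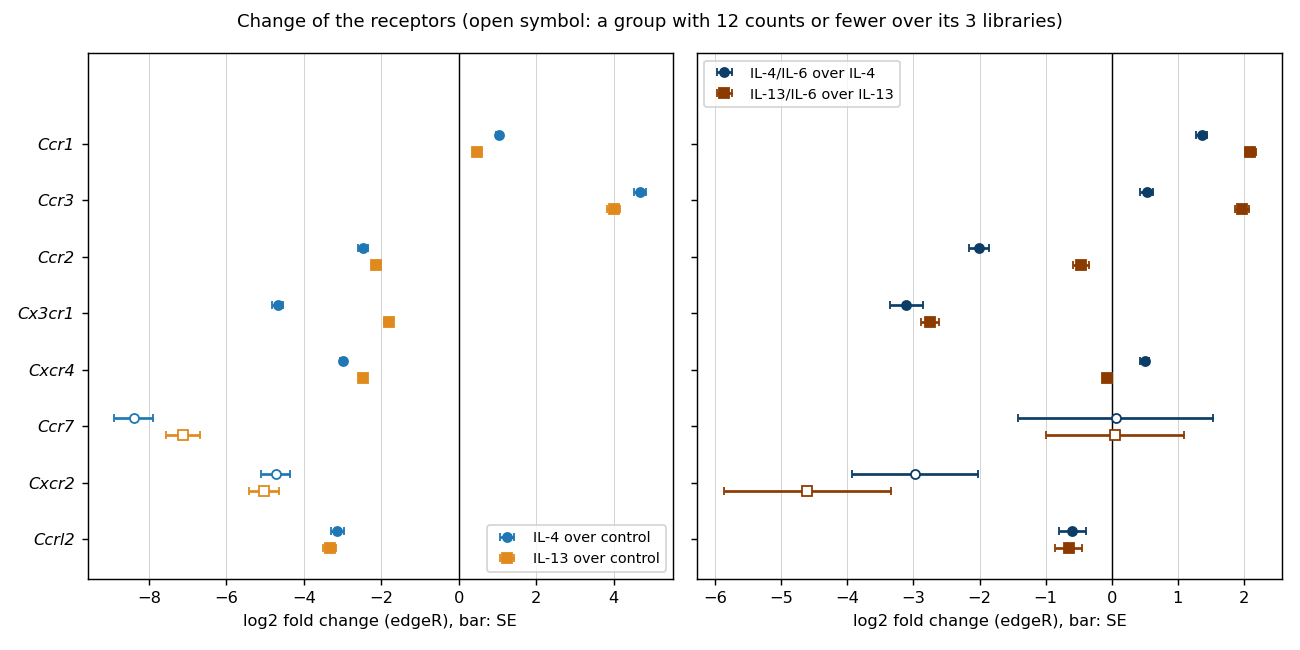
Log2 fold change of each receptor with its SE (x axis), for IL-4 and IL-13 over control on the left and for IL-6 added to each on the right, with open symbols where a group held few counts. Ccr1 and Ccr3 lie to the right of 0 in all 4 comparisons, and Ccr2, Cx3cr1, Cxcr2 and Ccrl2 to the left.

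Ccr1, Ccr3 and Ccr2 are neighbors within 151.4 kb of chromosome 9. In the GENCODE annotation of GRCm38, the build named in the submitters' processing notes, Ccr1 (ENSMUSG00000025804) lies on the minus strand at chr9:123962124-123968692, Ccr3 (ENSMUSG00000035448) on the plus strand at chr9:124021972-124031689 and Ccr2 (ENSMUSG00000049103) on the plus strand at chr9:124101950-124113557. The promoter windows of these 3 genes, from 250 bases before to 50 after the RefSeq start, are shown because neighboring genes changed in opposite directions. For Ccr2, the RefSeq start lies downstream of the GENCODE start given here, so that nearly all of its window is inside the GENCODE gene. The windows are from RefSeq (GRCm38.p6), 5′ to 3′ on the strand of the gene, and capitals mark GAGGAA, the core bound by the macrophage factor PU.1, and TGAGTCA, a form of the AP-1 element.
Ccr1, minus strand, chr9:123968643-123968942: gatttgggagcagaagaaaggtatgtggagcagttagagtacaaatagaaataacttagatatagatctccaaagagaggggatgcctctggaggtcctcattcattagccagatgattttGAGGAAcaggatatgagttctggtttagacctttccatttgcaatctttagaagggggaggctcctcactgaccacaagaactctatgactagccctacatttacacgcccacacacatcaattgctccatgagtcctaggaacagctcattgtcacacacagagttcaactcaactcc
Ccr3, plus strand, chr9:124021721-124022020: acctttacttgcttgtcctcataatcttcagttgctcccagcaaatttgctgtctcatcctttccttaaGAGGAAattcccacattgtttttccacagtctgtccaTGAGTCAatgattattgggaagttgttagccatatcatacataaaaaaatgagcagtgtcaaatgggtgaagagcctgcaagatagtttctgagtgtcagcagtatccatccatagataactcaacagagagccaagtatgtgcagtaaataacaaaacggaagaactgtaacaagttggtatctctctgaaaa
Ccr2, plus strand, chr9:124101933-124102232: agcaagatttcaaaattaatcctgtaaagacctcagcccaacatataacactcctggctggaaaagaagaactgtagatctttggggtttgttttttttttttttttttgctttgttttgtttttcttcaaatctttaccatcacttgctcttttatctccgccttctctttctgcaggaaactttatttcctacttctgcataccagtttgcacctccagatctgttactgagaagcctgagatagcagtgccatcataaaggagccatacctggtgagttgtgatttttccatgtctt

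Windows were found for 7 of the 8 receptors, with 9 windows in all because Ccrl2 has several starts. All were searched on both strands. The palindrome of TTC and GAA with 4 bases between, preferred by STAT6, and TTCNNNGAA, the spacing of the other STAT proteins, were in 0 of the 9 windows, beside 6.95% and 8.30% of 32851 RefSeq promoter windows of mouse. GAGGAA was in 3 windows (Ccr1, Ccr3 and Cxcr2), beside 28.3% of all windows, and TGANTCA in 1 (Ccr3), beside 7.81%. No 2 of these matches overlapped. The last 2 motifs were searched after the first had given no match, and a match is a description of the letters only.

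Ccr1 is a receptor for Ccl3, Ccl5, Ccl6, Ccl7 and Ccl9 on monocytes and macrophages. Its normalized CPM was 48.5, 50.1 and 44.1 in the control libraries, 102, 93.1 and 100.2 in IL-4 and 68.0, 71.9 and 59.4 in IL-13. With IL-6 it was 251, 272 and 236 in IL-4/IL-6 and 286, 303 and 264 in IL-13/IL-6. The groups did not overlap, other than the 2 with IL-6, whose ranges did. Compared with control, Ccr1 rose by 1.05 ± 0.08 (log2, SE) in IL-4 (adjusted p = 8.6e-09, edgeR quasi-likelihood test) and by 0.48 ± 0.08 in IL-13 (adjusted p = 0.000107). It rose further with IL-6, by 1.36 ± 0.08 over IL-4 (edgeR adjusted p = 4.89e-10) and by 2.1 ± 0.08 over IL-13 (adjusted p = 6.79e-12). From control to the groups with both cytokines the change came to 5.31-fold in IL-4/IL-6 and 5.98-fold in IL-13/IL-6. The nearby paralog Ccr1l1, with which reads could be shared, held at most 12 counts in any library.

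Ccr3, the eotaxin receptor known from eosinophils, was the receptor with the largest rise over control among the 8. It was low in control, at 1.2, 1.27 and 0.897 CPM (62 counts in all). It was 26.4, 30.9 and 30.7 CPM in IL-4 and 17.6, 21.2 and 15.8 in IL-13. In IL-4/IL-6 it was 42.5, 42.3 and 42.1 CPM, and in IL-13/IL-6 78.2, 65.1 and 70.9. No 2 groups overlapped, and the order from low to high was control, IL-13, IL-4, IL-4/IL-6 and IL-13/IL-6. The log2 fold change over control was 4.7 ± 0.16 in IL-4 (adjusted p = 1.34e-13, edgeR quasi-likelihood test) and 4.0 ± 0.16 in IL-13 (adjusted p = 2.2e-12). IL-6 raised it by 0.53 ± 0.10 over IL-4 (edgeR adjusted p = 0.000476) and by 1.98 ± 0.11 over IL-13 (adjusted p = 1.89e-10). Over control, IL-13/IL-6 reached 63.1-fold and IL-4/IL-6 37.4-fold.

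Of 9 listed markers of eosinophils, basophils and mast cells (without Ccr3), 7 were tested. In IL-4 over control 6 were called lower by edgeR, beside 35.9% of all genes. The summed level of the 9 was 36.1 to 40.4 CPM in control, 6.05 to 7.81 in IL-4 and 4.61 to 6.08 in IL-13. With IL-6 it was 0.921 to 1.36 in IL-4/IL-6 and 1.39 to 1.90 in IL-13/IL-6. Epx, the eosinophil peroxidase, had a count of 0 in every treated library. In the treated groups the sum was mostly Siglecf and Gata2. They were at 4.69 and 1.83 CPM in IL-4 and at 0.828 and 0.211 in IL-4/IL-6. Ccr3 was highest in IL-13/IL-6 and then IL-4/IL-6, and this sum was lowest in IL-4/IL-6 and then IL-13/IL-6. The part of such cells in the level of Ccr3 was not tested. Bulk RNA cannot tell fewer cells of a type from less RNA per cell, and this holds for every level given here.

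Ccr2, the receptor for Ccl2, Ccl7 and Ccl12, was at 81.6, 80.8 and 83.8 CPM in control, 15.8, 14.7 and 13.9 in IL-4 and 17.7, 20.9 and 17.7 in IL-13. It was 4.19, 2.53 and 4.26 CPM in IL-4/IL-6 and 14.7, 14.4 and 11.8 in IL-13/IL-6. The control libraries stood above all others, the IL-4/IL-6 libraries below all others, and only IL-4 and IL-13/IL-6 overlapped among neighbors in the order. Ccr2 fell by 2.48 ± 0.12 (log2) in IL-4 (adjusted p = 1.37e-11, edgeR quasi-likelihood test) and fell by 2.13 ± 0.12 in IL-13 (adjusted p = 1.01e-10). With IL-6 it again fell by 2.01 ± 0.15 over IL-4 (edgeR adjusted p = 7.66e-09). Over IL-13 it fell by 0.46 ± 0.12 (adjusted p = 0.0105), a call that was lost without IL-13 replicate 2 (-0.39, edgeR adjusted p = 0.0535) or IL-13/IL-6 replicate 3 (-0.38, adjusted p = 0.0616). Over all alternatives, that adjusted p lay between 0.000359 and 0.0616. In IL-4/IL-6 the level was 22.3-fold below control. All 6 listed markers of monocytes, among them Ly6c2 and Plac8, were called lower in IL-4 over control, beside 35.9% of all genes. In IL-13 over control 5 were called lower, beside 31.1% of all genes. The summed level of the 6 was 113 to 120 CPM in control, 13.1 to 14.3 in IL-4 and 13.1 to 15.6 in IL-13. With IL-6 it was 4.95 to 5.72 in IL-4/IL-6 and 7.69 to 8.13 in IL-13/IL-6. The part of such cells in the fall of Ccr2 was not tested.

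Cx3cr1 (ENSMUSG00000052336, minus strand, chr9:119901616-120069879) binds fractalkine, encoded by Cx3cl1. Of the 8, it had the largest called difference between IL-4 and IL-13. Its CPM was 136, 129 and 146 in control, 4.12, 6.09 and 5.89 in IL-4 and 41.0, 36.6 and 39.5 in IL-13. In IL-4/IL-6 the libraries held 16, 6 and 10 counts (0.907, 0.353 and 0.576 CPM), and in IL-13/IL-6 it was 6.82, 4.88 and 5.78 CPM. The IL-13 libraries thus lay between control and IL-4, and the only groups that overlapped were IL-4 and IL-13/IL-6. Cx3cr1 fell by 4.68 ± 0.14 (log2) in IL-4 (adjusted p = 4.19e-14, edgeR quasi-likelihood test) and fell by 1.81 ± 0.12 in IL-13 (adjusted p = 6.44e-10). With IL-6 it fell by 3.11 ± 0.25 over IL-4 (edgeR adjusted p = 1.97e-08) and by 2.75 ± 0.14 over IL-13 (adjusted p = 9.9e-11). Its level in IL-4 was 7.28-fold lower than in IL-13. Its long gene model spans 9 other genes, of which only Gm33858 shares an exon (19 counts over the 15 libraries). The strand setting of the counting is not given in the sources used here.

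Cxcr4 (ENSMUSG00000045382, minus strand, chr1:128588199-128592293), the receptor for Cxcl12 and also for Mif, had the highest CPM of the 8 in control, at 193, 189 and 199. It was 24.3, 22.9 and 26.1 CPM in IL-4 and 33.8, 35.2 and 36.3 in IL-13. With IL-6 it was 35.0, 34.0 and 34.8 in IL-4/IL-6 and 34.4, 33.7 and 32.3 in IL-13/IL-6. The IL-4 libraries were the lowest, and the other 3 treated groups overlapped with their neighbors. Cxcr4 fell by 2.99 ± 0.07 (log2) in IL-4 (adjusted p = 2.95e-15, edgeR quasi-likelihood test) and by 2.47 ± 0.07 in IL-13 (adjusted p = 2.34e-14). IL-6 raised it by 0.50 ± 0.07 over IL-4 (edgeR adjusted p = 1.03e-05). Over IL-13 the difference was -0.07 ± 0.07 (adjusted p = 0.507), which did not pass the test. Cxcr4 was thus the only one of the 8 with a call for IL-6 against the direction of its IL-4 call.

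Ccr7 (ENSMUSG00000037944, minus strand, chr11:99144196-99155077) guides dendritic cells and lymphocytes to lymph nodes. The control libraries held 162, 160 and 142 counts (8.42 ± 0.450 CPM), and the treated groups between 1 and 3 counts over their 3 libraries. The control exceeded IL-4 464-fold (95% interval of the counts 82.9 to 18360) and IL-13 157-fold (53.3 to 763), with adjusted p of 2.13e-10 and 4.06e-10 in edgeR's quasi-likelihood test. Such intervals are exact binomial ones on summed counts and cover counting error only. No effect of IL-6 was detectable at this depth. Of the dendritic cell markers, 7 were tested. In IL-4 over control 5 of them were called lower and 1 higher, beside 35.9% and 32.1% of all genes. In IL-13 over control 6 were called lower and 1 higher, beside 31.1% and 29%. The summed level of the 8 listed was 52.7 to 54.0 CPM in control, 20.1 to 21.7 in IL-4, 21.5 to 23.7 after IL-4/IL-6, 8.03 to 9.29 in IL-13 and 6.53 to 7.73 in IL-13/IL-6. Among them, Fscn1, a gene of mature dendritic cells, went from 7.29 CPM in control to 0.0357 in IL-4. The marker called higher was Batf3, a transcription factor of dendritic cells, which went from 3.59 CPM in control to 18.6 in IL-4 (log2 fold change 2.37, edgeR adjusted p = 7.91e-11) and 5.97 in IL-13 (0.73, adjusted p = 0.000288) and so made up most of the summed level in IL-4. Cd209a was lower in both than in control and rose with IL-6, over IL-4 from 0.0545 to 11.3 CPM (edgeR adjusted p = 5.86e-10). Over IL-13, where it had been at 0, it reached 2.14 CPM. Their part in the fall of Ccr7 was not tested.

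Cxcr2 (ENSMUSG00000026180, plus strand, chr1:74153989-74161246), best known as the neutrophil receptor for Cxcl1, Cxcl2, Cxcl5 and Ppbp, held 97, 118 and 86 counts in control (5.47 ± 0.930 CPM). The counts were 3, 4 and 4 in IL-4, 5, 3 and 1 in IL-13, 1, 0 and 0 in IL-4/IL-6, and 0 in each library of IL-13/IL-6. The control exceeded IL-4 27.4-fold (95% interval of the counts 15.1 to 55.4) and IL-13 33.9-fold (17.6 to 74.9), with edgeR adjusted p of 2.53e-08 and 2.5e-08. Compared with the floor of 3 counts over the group, Cxcr2 was at least 97.8-fold lower in IL-13/IL-6 than in control. The further fall with IL-6 was called in both backgrounds (edgeR adjusted p = 0.0215 over IL-4 and 0.0135 over IL-13), on 11 against 1 and 9 against 0 counts. Over IL-13 it came to at least 2.89-fold. Over IL-4 the ratio was 10.4 (95% interval of the counts 1.51 to 447), and the call was lost without IL-4 replicate 2, IL-4/IL-6 replicate 2 or IL-4/IL-6 replicate 3 (edgeR adjusted p = 0.0512, 0.0675 and 0.066, and between 0.0162 and 0.0675 over all alternatives).

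Markers of neutrophils and their precursors fell together with Cxcr2. Of 10 listed, 9 were tested. All 9 were called lower in IL-4 and in IL-13 over control by edgeR, beside 35.9% and 31.1% of all genes. The summed level of the 10 was 627 to 723 CPM in control, 38.6 to 44.1 in IL-4 and 28.2 to 31.1 in IL-13. With IL-6 it was 116 to 137 in IL-4/IL-6 and 52.8 to 63.6 in IL-13/IL-6. Of the defining genes, S100a9 went from 156 CPM in control to 0.0369 in IL-4, and Retnlg had a count of 0 in every treated library. What was left in the treated groups was nearly all Csf3r, at 40.8 CPM with IL-4 and 124 after IL-4/IL-6. The part of such cells in the level of Cxcr2 was not tested.

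Ccrl2 (ENSMUSG00000043953, minus strand, chr9:111054486-111057519), the atypical member, presents the attractant chemerin (encoded by Rarres2) and does not signal through G proteins. It was at 33.5, 41.2 and 40.0 CPM in control, 3.69, 4.59 and 4.8 in IL-4 and 4.39, 3.88 and 3.14 in IL-13. With IL-6 it was 2.15, 2.59 and 3.91 in IL-4/IL-6 and 2.37, 2.28 and 2.61 in IL-13/IL-6. Control stood clear of all treated groups, each of which overlapped with its neighbor in the order. Ccrl2 fell by 3.13 ± 0.17 (log2) in IL-4 (adjusted p = 4.18e-11, edgeR quasi-likelihood test) and by 3.33 ± 0.17 in IL-13 (adjusted p = 3.71e-11). The smaller falls with IL-6 were 0.59 ± 0.20 over IL-4 (edgeR adjusted p = 0.0255) and 0.65 ± 0.21 over IL-13 (adjusted p = 0.0279). Each depended on the libraries used. The call over IL-4 was lost without IL-4 replicate 2 or 3 or IL-4/IL-6 replicate 1 or 2 (log2 fold change -0.58, -0.54, -0.44 and -0.54, edgeR adjusted p = 0.0655, 0.0798, 0.115 and 0.0644). The call over IL-13 was lost without IL-13 replicate 1 or 2 or IL-13/IL-6 replicate 1 or 2 (-0.54, -0.64, -0.65 and -0.61, edgeR adjusted p = 0.0987, 0.0661, 0.073 and 0.0881). Over all alternatives these adjusted p lay between 0.00154 and 0.115 and between 0.00945 and 0.0987.

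To set the receptors against each other, the authors' FPKM was used, which accounts for gene length. In control, Cxcr4 led with 112 ± 3.93 FPKM, which was 57.1% of the summed FPKM of the 8, followed by Cx3cr1 (31.8 ± 2.18), Ccr1 (17.5 ± 1.07), Ccrl2 (15.4 ± 1.58) and Ccr2 (12.7 ± 0.323). In each treated group Ccr1 led instead, with 35.1 ± 1.51 FPKM in IL-4, 84.1 ± 2.47 in IL-4/IL-6, 24.0 ± 2.32 in IL-13 and 98.1 ± 7.45 in IL-13/IL-6. Its share of the sum was 55.7%, 72.5%, 38.2% and 69.3% in these groups, against 8.94% in control. Ccr3, the lowest of the 8 in control (0.358 ± 0.0619 FPKM), was the second in IL-13/IL-6 (21.3 ± 1.80). The summed FPKM of the 8 was 192 to 202 in control, 61.3 to 65.0 in IL-4, 60.3 to 66.2 in IL-13, 115 to 117 in IL-4/IL-6 and 133 to 148 in IL-13/IL-6. The ranges of IL-4 and IL-13 overlapped and the others did not. These sums rest on library totals without TMM scaling.

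**Figure D3:**
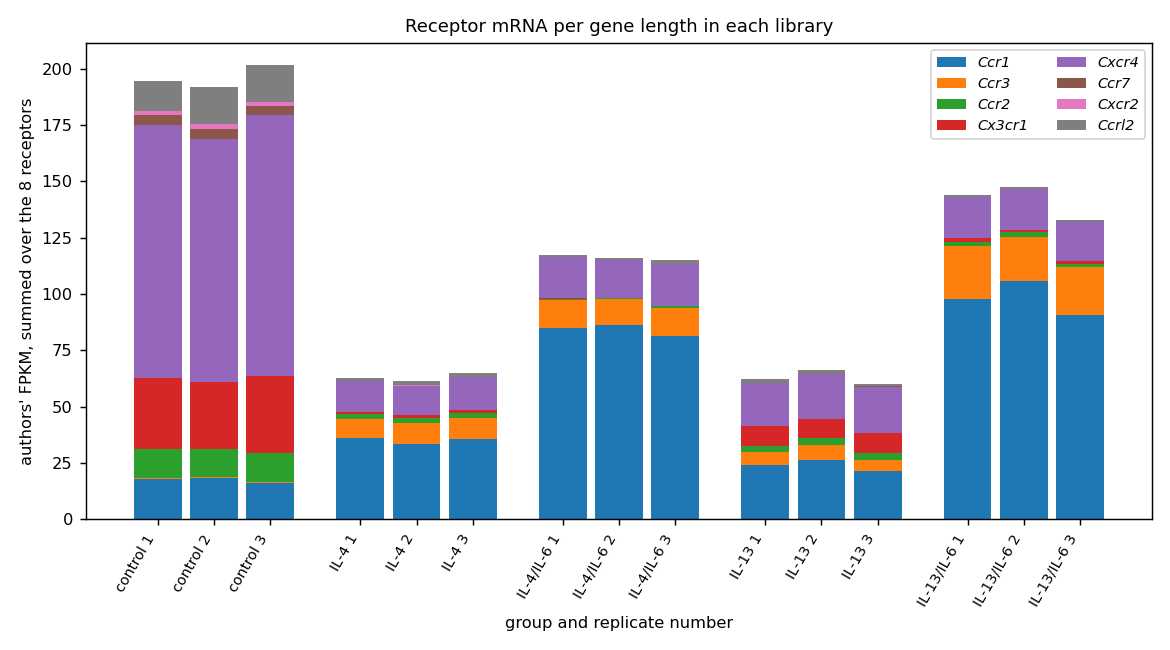
The authors' FPKM of the 8 receptors stacked for each library (y axis, from 0), with libraries by group and replicate number on the x axis. Cxcr4 fills most of each control bar (57.1% of the summed FPKM of the group), and Ccr1 most of each IL-4/IL-6 and IL-13/IL-6 bar (72.5% and 69.3%).

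Against control, both groups with IL-6 kept 2 receptors called higher (Ccr1 and Ccr3) and 6 called lower. Over all genes, 35.4% were called higher and 37.5% lower in IL-4/IL-6 over control, and 31.9% and 32.1% in IL-13/IL-6 over control. These comparisons share the control libraries with those above. The median log2 fold change of the 8 was -4.10 in IL-4/IL-6 and -3.28 in IL-13/IL-6, and the latter was the same with Cxcr2 set to its bound.

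The doses of IL-4 (10 ng/ml) and IL-13 (40 ng/ml) differed, so cytokine and dose cannot be told apart when those groups are compared. In IL-4 over IL-13, Ccr1 (log2 fold change 0.57 ± 0.08, adjusted p = 0.000136) and Ccr3 (0.69 ± 0.11, adjusted p = 0.000239) were called higher by edgeR's quasi-likelihood test. Cx3cr1 (-2.86 ± 0.14, edgeR adjusted p = 9.36e-10) and Cxcr4 (-0.52 ± 0.07, adjusted p = 3.55e-05) were called lower. The other 4 were not called, beside 5.16% of all genes called higher and 7.61% lower. Those shares moved when single libraries were left out, as given in the last section. Ccr2 (-0.35 ± 0.12, edgeR adjusted p = 0.078) passed the threshold with DESeq2 (-0.34, adjusted p = 0.0332), without IL-4/IL-6 replicate 2 (-0.34, edgeR adjusted p = 0.0156) and without both libraries that stood apart (-0.38, adjusted p = 0.00552), and its adjusted p lay between 0.00552 and 0.301 over all alternatives. In IL-4/IL-6 over IL-13/IL-6, 0 receptors were called higher by edgeR (0 as well at an unadjusted p under 0.05 and with DESeq2) and 3 lower, beside 15.8% and 15.5% of all genes. These were Ccr2 (-1.89 ± 0.15, edgeR adjusted p = 4.88e-08), Ccr3 (-0.76 ± 0.10, adjusted p = 1.73e-05) and Cx3cr1 (-3.23 ± 0.25, adjusted p = 2.96e-08). Ccr3 was thus higher in IL-4 than in IL-13, and in the groups with IL-6 this order was reversed. Ccr1 did not pass in that comparison (-0.17 ± 0.08, edgeR adjusted p = 0.12), though it did without IL-4/IL-6 replicate 2 (-0.22, adjusted p = 0.0428), and its adjusted p lay between 0.0169 and 0.33 over all alternatives.

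Whether IL-6 acted to the same extent in both backgrounds was tested with the interaction, the log2 change with IL-6 in IL-4 minus that in IL-13. It was called for 4 of the 8 receptors, with 1 higher and 3 lower, beside 3.22% and 4.42% of all genes. For Ccr3 the rise was smaller in IL-4, by -1.45 ± 0.15 (adjusted p = 6.41e-06, edgeR quasi-likelihood test). For Ccr1 it was smaller as well, by -0.74 ± 0.12 (edgeR adjusted p = 0.000445). For Ccr2 the fall was larger in IL-4, by -1.55 ± 0.20 (edgeR adjusted p = 6.39e-05). For Cxcr4 the interaction was 0.57 ± 0.09 (edgeR adjusted p = 0.000723), from a rise over IL-4 that had no counterpart past the threshold over IL-13. All 4 calls held in each of the 21 alternatives, with adjusted p of at most 0.00433. Cx3cr1 (-0.36 ± 0.32, edgeR adjusted p = 0.642) and Ccrl2 (0.06 ± 0.29, adjusted p = 0.962) were not called, and the few counts of Ccr7 and Cxcr2 could not show a difference.

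**Figure D4:**
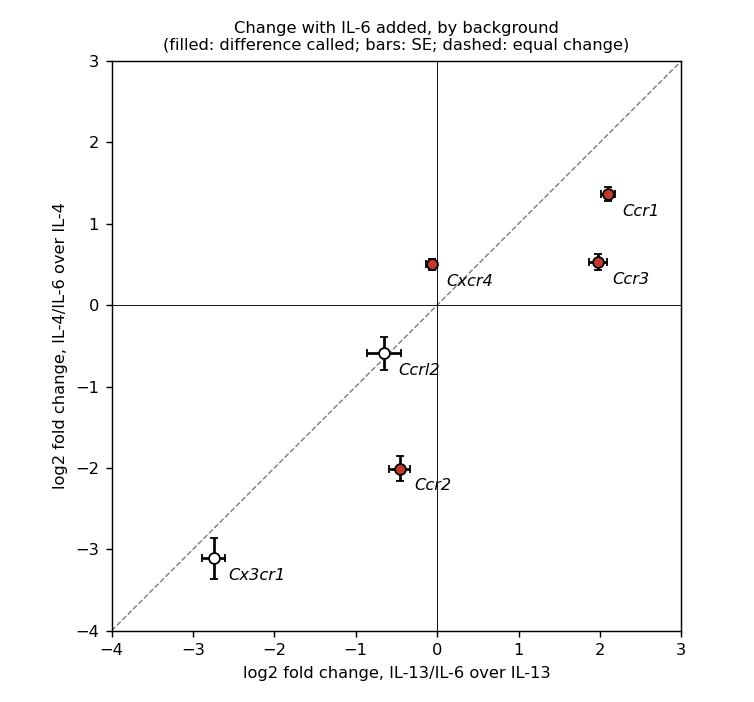
Log2 fold change with IL-6 over IL-13 (x axis) and over IL-4 (y axis), each with its SE, for the 6 receptors with enough counts in all 5 groups. Filled points have a called interaction: Ccr1, Ccr3 and Ccr2 lie below the dashed line of equal change and Cxcr4 above it.

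Ligands of the 8 receptors were taken as a list of 22 genes, of which 16 were tested. Here 9 were called higher and 3 lower in IL-4 over control (median log2 fold change 0.66), and 8 higher and 2 lower in IL-13 over control (median 0.40). The shares of all genes called in these comparisons are those given for the receptors. With IL-6 added, 9 were called higher and 1 lower over IL-4 (median 0.79, beside 0.04 over all genes), where 20.7% and 18.7% of all genes were called. Over IL-13, where it was 12.1% and 13.5% of all genes, 10 were called higher (median 1.29, beside 0.01 over all genes) and 0 lower by edgeR, with 0 as well at an unadjusted p under 0.05 and with DESeq2. The medians over control were the same with Ccl8 and Ccl12, which had no count in control, set to their bounds.

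Genes for 3 ligands of Ccr2 rose in the groups in which Ccr2 itself fell. Ccl2 went from 6.01 CPM in control to 300 with IL-4 and 2285 after IL-4/IL-6, and to 122 with IL-13 and 897 after IL-13/IL-6. Ccl7, which also binds Ccr1 and Ccr3, was at 1.30, 438, 3803, 124 and 1505 CPM in the same order. Ccl12 was at 0 counts throughout the control group. Against the floor of 3 counts over that group, it was higher by at least 54.4-fold with IL-4 and by at least 4112-fold with IL-4/IL-6. When IL-6 was added to IL-4, Ccl2 rose by 2.93 ± 0.12 (edgeR adjusted p = 2.01e-12), Ccl7 by 3.12 ± 0.13 (adjusted p = 5.99e-12) and Ccl12 by 6.24 ± 0.19 (adjusted p = 1.14e-12).

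Among ligands of Ccr3, Ccl24 (eotaxin 2) went from 0.183 CPM in control to 12.5 with IL-4 and 236 after IL-4/IL-6, and to 1.16 with IL-13 and 32.02 after IL-13/IL-6. It rose with IL-6 by 4.24 ± 0.14 over IL-4 (edgeR adjusted p = 3.07e-13) and by 4.78 ± 0.20 over IL-13 (adjusted p = 9.74e-12). Ccl11 (eotaxin 1) held at most 3 counts in any library. Ccl8, a relative of Ccl7 and Ccl12, had 0 counts in control and reached 750 CPM in IL-4/IL-6 and 291 in IL-13/IL-6. Receptor and ligand thus differed in order, as Ccr3 was highest in IL-13/IL-6 and Ccl24 in IL-4/IL-6.

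Of the ligands of Ccr1, Ccl9 and Ccl6 were already abundant in control (383 and 374 CPM). Ccl9 was at 790 CPM in IL-4 and rose with IL-6 by 0.40 ± 0.07 over IL-4 (edgeR adjusted p = 0.000175). Ccl4 rose with IL-6 by 2.15 ± 0.13 over IL-13 (edgeR adjusted p = 1.58e-09). Ppbp, a ligand of Cxcr2 made by platelets and their precursors, fell by 6.69 ± 0.20 in IL-4 (edgeR adjusted p = 3.08e-14) and fell by 6.47 ± 0.19 in IL-13 (adjusted p = 6.37e-14). Cxcl5 fell by 4.60 ± 0.56 in IL-4 (edgeR adjusted p = 1.47e-06). Cx3cl1 was sparse, with 37 counts over the control group, 26 in IL-4, 1 in IL-4/IL-6, 34 in IL-13 and 12 in IL-13/IL-6, and was called lower with IL-6 over IL-4 (edgeR adjusted p = 0.00614) and in both groups with IL-6 over control (adjusted p = 0.000677 for IL-4/IL-6 and 0.0485 for IL-13/IL-6). With IL-6 over IL-13 it was not called (edgeR adjusted p = 0.147). Both ligands of Ccr7, Ccl19 and Ccl21a, had 0 counts in all libraries, while Rarres2 held at most 1 and Cxcl12 at most 14. Mif, the other ligand of Cxcr4, was at 94.9 CPM in control and 227 in IL-4.

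**Figure D5:**
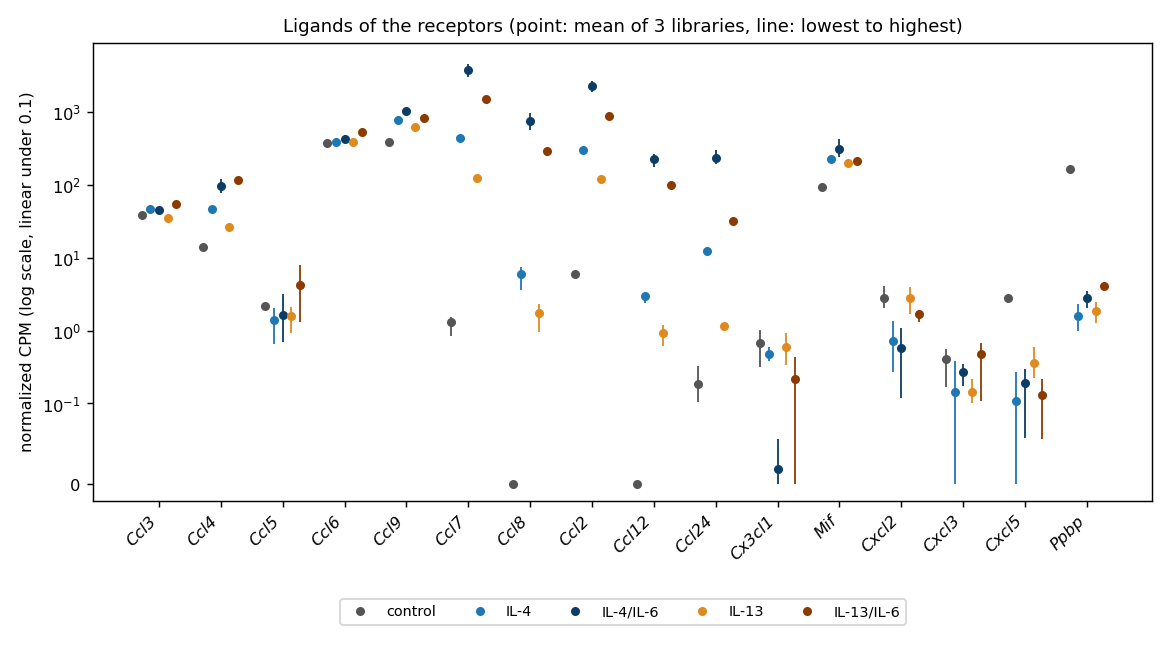
Normalized CPM (y axis, log scale, linear under 0.1) of the 16 tested ligands (x axis) in the 5 groups, with points for means and lines from the lowest to the highest library. Ccl7, Ccl8, Ccl2, Ccl12 and Ccl24 are highest in IL-4/IL-6 (Ccl7 3803 CPM), and Ppbp is highest in control (166 CPM).

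Of 16 other chemokine receptors, 6 were tested. In IL-4 over control 4 were called lower (Ccr6, Cxcr1, Ccr9 and Cxcr3), with a median of -4.31 (-3.58 with Ccr6 at its bound). In IL-13 over control the same 4 were called lower and 0 higher by edgeR, with 0 at an unadjusted p under 0.05 and with DESeq2. Of all genes, 32.1% were called higher and 35.9% lower in IL-4, and 29% and 31.1% in IL-13. Cxcr1, the paralog of Cxcr2, held 126 counts over the control group and at most 1 in each treated group.

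Genes that act downstream of chemokine receptors were taken as a list of 26, all of which were tested. In IL-4 over control 9 were called higher and 12 lower (median -0.04), beside 32.1% and 35.9% of all genes. In IL-13 over control it was 10 and 8 (median -0.01), beside 29% and 31.1%. With IL-6, 6 were called higher and 13 lower over IL-4 (median -0.23), beside 20.7% and 18.7% of all genes, and 4 and 9 over IL-13 (median -0.13), beside 12.1% and 13.5%. Rgs16, Rgs1 and Rgs2 speed the shutdown of G proteins. Rgs16 rose by 6.43 ± 0.22 and Rgs1 by 1.67 ± 0.09 in IL-4 (edgeR adjusted p = 2.26e-13 and 3.04e-11). All 3 fell with IL-6 over IL-4, with log2 fold changes of -3.05 ± 0.12 (Rgs2), -2.58 ± 0.09 (Rgs1) and -1.58 ± 0.14 (Rgs16, edgeR adjusted p = 1.29e-12, 4.72e-13 and 5.25e-08). Grk3, a kinase that desensitizes receptors, fell by 3.50 ± 0.17 in IL-4 and fell by 2.77 ± 0.16 in IL-13 (edgeR adjusted p = 1.51e-11 and 1.94e-10). Dock2, which drives Rac in migrating leukocytes, rose by 0.79 ± 0.10 in IL-4 (edgeR adjusted p = 2.91e-06) and fell with IL-6 by 1.17 ± 0.10 over IL-4 (adjusted p = 5.27e-08).

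The 8 macrophage markers were present in every group, at 18910 to 21090 summed CPM in control, 14300 to 14770 in IL-4, 10890 to 12700 after IL-4/IL-6, 17040 to 19790 in IL-13 and 13920 to 14810 in IL-13/IL-6. Lyz2 made up most of this, and Csf1r, the M-CSF receptor, was between 1581 and 2193 CPM in the group means. The sum hides changes of single markers, both falls and rises. Mertk, a receptor for the uptake of dying cells, went from 142 CPM in control to 8.27 in IL-4 (log2 fold change -4.11, edgeR adjusted p = 6.44e-13) and 14.5 in IL-13. Cd14 fell by 1.53 (log2) in IL-4 (edgeR adjusted p = 1.06e-10) and was not called in IL-13 (-0.17, adjusted p = 0.0959). Cd68 rose by 0.37 in IL-4 and by 0.39 in IL-13 (edgeR adjusted p = 1.42e-05 and 1.05e-05). In IL-4 over control 5 of the 8 were called lower and 1 higher, beside 35.9% and 32.1% of all genes. In IL-13 it was 3 and 3, beside 31.1% and 29%. With IL-6, 5 were called lower and 3 higher over IL-4, beside 18.7% and 20.7% of all genes. Over IL-13, 2 were called lower and 3 higher, beside 13.5% and 12.1%. Adgre1 and Fcgr1 were called higher with IL-6 in both backgrounds, Fcgr1 by 1.10 (log2) over IL-4 and by 1.35 over IL-13. All 5 B cell markers were called lower in IL-4 and in IL-13 over control, beside 35.9% and 31.1% of all genes. The summed CPM of the 5 went from 10.8 to 12.3 in control to at most 1.66 in any treated library. The 6 T and NK cell markers were at most 0.897 summed CPM in any library, with Cd3e at 0 counts throughout. Of the cytokine response genes, Retnla was called higher and Socs3 and Il4ra lower in both IL-4 and IL-13 over control, and with IL-6 Socs3 and Il4ra were called higher and Retnla lower in both backgrounds.

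Genes whose pattern was most like that of each receptor were found by Pearson's r of log2 CPM over the 15 libraries, among 6073 genes whose group means spanned at least 1 on the log2 scale. The values are a description without a test, since all genes share the same libraries and the 5 groups. Ccr1 was most like Zfp36 (r = 0.992) and Mrc1 (0.983), the mannose receptor, which was at 196 CPM in control, 995 with IL-4 and 8713 after IL-4/IL-6. Ccr3 was most like Pomk (0.989) and Pla2g4a (0.982). Ccr2 was most like Bcl2l11 (0.993) and Dtx4 (0.992), and Cx3cr1 like Gsap (0.988) and Slc16a10 (0.986). Cxcr4 was most like Scarb2 (0.995), which was at 340 CPM in control and 118 in IL-4. Ccr7 was most like Camp (0.995), one of the neutrophil precursor genes, and Ccrl2 and Cxcr2 both had Mgll among their 3 most similar genes (0.982 and 0.986).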

How the data were processed

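RNAseq of BMDMs gave 15 libraries in 5 groups of 3, assigned from the labels. The authors deposited raw counts per gene for 53465 Ensembl genes and FPKM per library, in which each count is divided by a gene length and by the library total (checked on 268061 values). The submitters' processing notes name CASAVA, Bowtie2 2.2.3, HISAT2 2.1.0, TopHat2 and DESeq2 and the build GRCm38, without saying which made the counts, and the counting tool and its strand setting are not given in the sources used here. Symbols and positions came from GENCODE, promoters from RefSeq. All count columns were matched to a sample. Deposited counts went into edgeR 4.0.16 under R 4.3.3 (filterByExpr with minimum count 10, TMM, glmQLFit and glmQLFTest, Benjamini-Hochberg over 13938 genes, two-sided), in one fit of 15 libraries without covariates, which was tested on simulated data. The FPKM served to compare levels between genes and to sum the 8 receptors in each group. They rest on library totals without TMM scaling. The members and gene lists were chosen with earlier results of these data known. Named genes were the 8 receptors, at most 6 called genes per list and comparison with the largest changes, marker genes of each list, and the 3 genes most like each receptor. Ccl6, Ccl9, Ccl11, Ccl19, Ccl21a, Rarres2, Cxcl12 and Mif fell outside this rule and were named as ligands after their values were seen. Alternatives were DESeq2 1.42.0, upper-quartile factors, other filters, a replicate block, a fit of 9 libraries, other scalings of CPM and FPKM, and the omission of each library. Leaving out both libraries that stood apart, and 2 further promoter motifs, were added after seeing the data. Some genes of the lists and the genotype of the mice are not reported here.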

Additional observations from a re-analysis of the deposited data

Results flagged for a closer look

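The change with IL-6 differed between the IL-4 and the IL-13 background for 4 of the 8 receptors, by edgeR's quasi-likelihood test of the interaction (IL-4 background minus IL-13 background, n = 3 libraries per group). The difference was -0.74 for Ccr1 (edgeR adjusted p = 0.000445), -1.55 for Ccr2 (adjusted p = 6.39e-05), -1.45 for Ccr3 (adjusted p = 6.41e-06) and 0.57 for Cxcr4 (adjusted p = 0.000723). Without both libraries that stood apart it was -0.82, -1.31, -1.43 and 0.60. The doses of IL-4 and IL-13 differed, so that cytokine and dose cannot be told apart. Groups of 3 were not tested for single outlying libraries.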

How the results depend on the processing

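Of 1536 values of the receptors' log2 fold changes over 22 alternatives, 0 called values changed sign, 15 lost a call and 5 gained one. Those values are beside the results above, other than those without both libraries that stood apart, where Cxcr2 with IL-6 over IL-4 (edgeR adjusted p = 0.0594) and Ccrl2 with IL-6 over IL-13 (adjusted p = 0.066) lost the call and Ccr1 between the groups with IL-6 gained one (adjusted p = 0.0169). The cause was not tested. With 1 library left out, 2 to 4 receptors were called lower for IL-6 in either background. In IL-4 over IL-13, genes called higher (719) numbered 444 to 1292, and genes called lower (1060) 644 to 1623. The highest of these were without IL-13 replicate 1. For genes called higher, IL-4 over IL-13, the number was 1153 with no filter on low counts and 2213 without both libraries. For genes called lower, IL-4 over IL-13, it was 2519 without both. For the difference of the IL-6 effect, genes called higher (449) numbered 293 to 607 with 1 library left out, the lowest without IL-4 replicate 2, and without both libraries 1224 were higher and 1290 lower (616). Libraries with the same replicate number had r of their deviations between -0.28 and 0.16 (30 pairs of libraries, 3 of them over 0.1). With 3 libraries per group, such r cannot tell whether these libraries shared an origin, which the labels do not give. The replicate block changed no call of a receptor, and genes called higher, IL-4 over control, numbered 4393 with it (4474 without). Of 200 alternative CPM levels of the receptors 4 moved by over 1 SD, all on unscaled totals, and the FPKM order was the same on a log scale. Depth limits what can be said of Ccr7 and Cxcr2 in the treated groups.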
